A study of Homo sapiens with 3 samples.

Results

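PADI1, PADI2, PADI3 and PADI4 encode peptidylarginine deiminases and lie side by side on chromosome 1. They were taken by symbol from the deposited gene table, 4 genes of 29960, and the question was whether its neighbours were lower together with PADI2 in gemcitabine-resistant cells. The genes were chosen by the known log2 ratio of PADI2 between the resistant and parental groups, so their values between resistant and parental libraries are given as a description and carry no test.

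Poly-A RNA was sequenced from clones of 5637, a human bladder cancer line. Parental 1 (5637P, genotype given as WT) and Resistant 1 and Resistant 2 (5637GR, genotype given as gemcitabine resistant) were all untreated when sampled, so no library was under drug. The labels call the gemcitabine exposure that produced the resistant cells acute, whereas the study's methods describe continuous exposure, and each library came from a clone grown from a single cell. Gemcitabine is a deoxycytidine analogue that blocks DNA synthesis. With 1 parental and 2 resistant libraries, the resistant state and differences between clones cannot be told apart. Total counts ranged from 14475531 to 17461941 reads on genes. Of 13 urothelial and epithelial markers that passed the filter on low counts, KRT19, a simple epithelial keratin, was the most abundant. It had 4306, 3590 and 4785 counts per 1e6 reads (CPM) in Parental 1, Resistant 1 and Resistant 2. KRT7 and KRT8 were lower in the resistant clones, at 1987, 1047 and 868 CPM and at 2271, 1666 and 1014 CPM. The libraries thus carried the labelled epithelial RNA.

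Peptidylarginine deiminases are calcium-dependent enzymes that turn arginine within a protein into citrulline, removing its positive charge. PADI1 and PADI3 act in the epidermis and hair follicle on filaggrin, trichohyalin and keratins. PADI2 is the most widely expressed member and is known for citrullinating myelin basic protein, vimentin and histones. PADI4 is best known from granulocytes, where it enters the nucleus and citrullinates histones during the release of chromatin traps, and PADI6 belongs to the oocyte and early embryo.

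In the hg19 coordinates of the table, PADI2 (ENSG00000117115) occupies chr1:17393256-17445948 on the minus strand. PADI1 (ENSG00000142623) follows at chr1:17531621-17572500, PADI3 (ENSG00000142619) at chr1:17575593-17610728 and PADI4 (ENSG00000159339) at chr1:17634690-17690499, all on the plus strand. PADI2 and PADI1 therefore point away from each other across 85672 bases, while only 3092 bases separate PADI1 from PADI3 and 23961 bases separate PADI3 from PADI4. PADI6 (ENSG00000256049), which the table lists as a processed transcript, lies 8191 bases beyond PADI4.

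The sequences just upstream of the start sites are shown as a description of the cluster. Their part in the size of the ratios was not tested. Of the 5 PADI genes, PADI1, PADI2, PADI4 and PADI6 matched the RefSeq promoter table, and PADI3 did not. The 250 bases before the start of PADI2 (chr1:17119452-17119701, minus strand), PADI1 (chr1:17204878-17205127, plus strand) and PADI4 (chr1:17307947-17308196, plus strand) are given on GRCh38.p14, a different build from that of the table. Capitals mark GGGCGG, the GC box, or its reverse CCGCCC, and TATAAA, the TATA box.
PADI2: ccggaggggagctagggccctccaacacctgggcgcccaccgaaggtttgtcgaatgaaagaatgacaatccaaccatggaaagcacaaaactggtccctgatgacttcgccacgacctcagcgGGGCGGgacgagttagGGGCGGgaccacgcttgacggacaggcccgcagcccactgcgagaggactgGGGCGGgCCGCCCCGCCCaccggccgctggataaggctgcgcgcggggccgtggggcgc
PADI1: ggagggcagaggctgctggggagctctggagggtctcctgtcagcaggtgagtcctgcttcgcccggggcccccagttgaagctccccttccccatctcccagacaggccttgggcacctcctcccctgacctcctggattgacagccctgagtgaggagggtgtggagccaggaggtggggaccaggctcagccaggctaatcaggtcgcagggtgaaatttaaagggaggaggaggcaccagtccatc
PADI4: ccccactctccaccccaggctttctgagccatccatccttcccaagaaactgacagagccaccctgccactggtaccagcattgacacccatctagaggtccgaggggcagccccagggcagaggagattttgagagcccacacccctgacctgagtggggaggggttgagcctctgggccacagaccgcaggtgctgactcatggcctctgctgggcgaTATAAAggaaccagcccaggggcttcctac

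The PADI2 window held 24 CpG dinucleotides, above the median of 11 over 35116 promoters of the same length, and 76.3% of those promoters held fewer. The windows of PADI1 and PADI4 held 3 each. GGGCGG occurred 5 times before PADI2 on both strands, of which the last 2 share a base, and not before PADI1 or PADI4. A GGGCGG was found in 42.6% of all promoters. PADI4 held 1 TATAAA, which began 30 bases before the start site, a motif found in 10.7% of promoters on either strand. CCAAT, sought on both strands and present in 32.0% of promoters, was in none of the 3 windows. These matches describe letters only, since no binding or methylation was measured.

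PADI2 was the most abundant of the 4 genes in parental cells. It had 1446 reads in Parental 1, 68 in Resistant 1 and 47 in Resistant 2. Scaled to depth, these were 102.6 CPM in Parental 1, 4.16 CPM in Resistant 1 and 2.71 CPM in Resistant 2. Both resistant clones thus sat far below the parental clone while keeping a low, countable level. The level was 24.7-fold lower in Resistant 1 (95% exact Clopper-Pearson interval of the read split 19.3 to 32.0) and 37.9-fold lower in Resistant 2 (28.4 to 51.8). These intervals, like all below, cover counting error only and not the spread between cultures. The mean log2 ratio was -4.91 ± 0.43 (SD of the 2 resistant libraries), and 34 of 15643 genes tested had a lower one, against 38 in the authors' group means.

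PADI1, the neighbour across the gap, was lower in both resistant clones too, but by much less. Its reads were 617 in Parental 1, 208 in Resistant 1 and 149 in Resistant 2, or 43.8, 12.7 and 8.58 CPM. This was 3.44-fold lower in Resistant 1 (2.94 to 4.05) and 5.10-fold lower in Resistant 2 (4.26 to 6.14). The mean log2 ratio was -2.06 ± 0.40 (SD, n = 2), with 228 tested genes below it, against 684 in the authors' group means.

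PADI3, which starts 3092 bases after the end of PADI1, was far less abundant. It had 46 reads in Parental 1, 7 in Resistant 1 and 8 in Resistant 2, or 3.26, 0.428 and 0.461 CPM. The parental value was again the highest and the resistant clones lay together. The ratio was 7.63-fold lower in Resistant 1 (3.42 to 20.0) and 7.08-fold lower in Resistant 2 (3.31 to 17.4), with a mean log2 ratio of -2.71 ± 0.07 (SD, n = 2). PADI3 passed the filter on low counts only through Parental 1, so a gene kept in this way had to be lower elsewhere.

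PADI4, the granulocyte enzyme, was barely detected and did not pass the filter. It had 6 reads in Parental 1, 0 in Resistant 1 and 3 in Resistant 2. The 0 in Resistant 1 allows up to 0.183 CPM at a floor of 3 counts, against 0.426 CPM in Parental 1 and 0.173 CPM in Resistant 2. With the resistant reads pooled, 3 against 6, PADI4 was 4.79-fold lower (1.02 to 29.6), and Resistant 2 alone was 2.46-fold lower with an interval that spans equality (0.526 to 15.2). The pooled interval covers the pooled ratios of PADI1 (4.14) and PADI3 (7.34), so PADI4 could not be set apart from either at this depth. It overlaps the pooled interval of PADI2 (24.9 to 36.7), but in Resistant 2 alone that of PADI2 (28.4 to 51.8) lay above that of PADI4. The ratio of the folds of PADI2 and PADI4 was not computed. PADI6 had 1 read in Parental 1 and 0 in both resistant clones, which gives no fold.

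**Figure D1:**
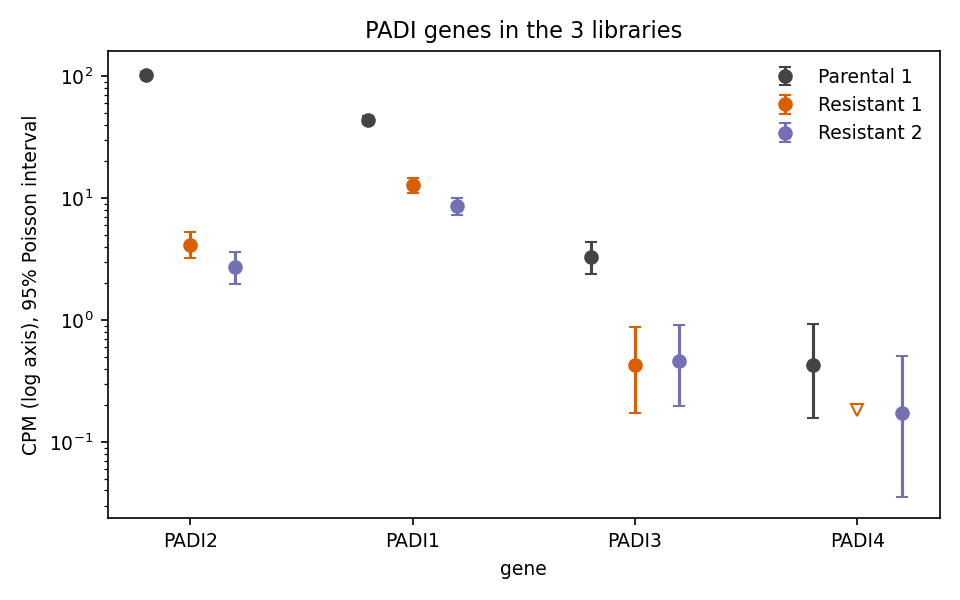
Level of each PADI gene in CPM on a log axis, in Parental 1, Resistant 1 and Resistant 2, with 95% Poisson intervals of the count. PADI2, PADI1 and PADI3 were highest in Parental 1; the open triangle marks PADI4 in Resistant 1, where 0 reads were counted, drawn at the level of 3 counts.

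Among the genes that passed the filter, PADI2, PADI1 and PADI3 were each at least 2-fold lower in both resistant clones, as were 3.65% of all 15643 genes tested, while 5.2% of them were at least 2-fold higher in both. These shares are given as background with nothing read from them, because the same libraries chose the genes. The fold of PADI2 exceeded that of PADI1 by 7.17 times in Resistant 1 (5.33 to 9.72) and by 7.43 times in Resistant 2 (5.24 to 10.7). It exceeded that of PADI3 by 3.24 times in Resistant 1 (1.19 to 7.57) and 5.35 times in Resistant 2 (2.06 to 12.3). PADI3 and PADI1 could not be ranked, since the ratio of their folds was 2.22 (0.973 to 5.90) in Resistant 1 and 1.39 (0.631 to 3.48) in Resistant 2. As a description of these 3 libraries, PADI1 and PADI3 were lower beside PADI2, by smaller folds.

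**Figure D2:**
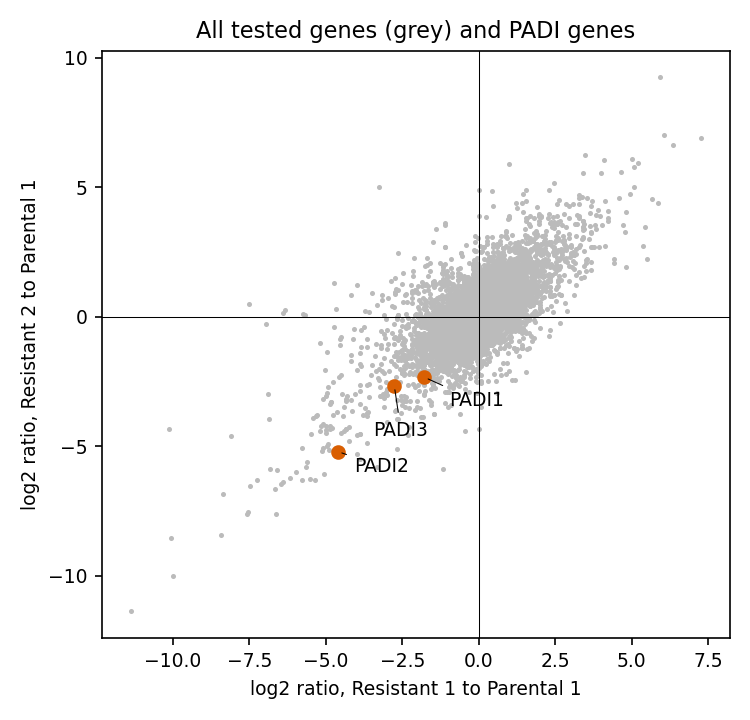
Log2 ratio to Parental 1 of each tested gene (grey) in Resistant 1 (horizontal) and Resistant 2 (vertical), with PADI1, PADI2 and PADI3 in orange. Both axes share Parental 1; PADI2 lay at -4.60 and -5.21, away from PADI1 at -1.78 and -2.34 and PADI3 at -2.76 and -2.67.

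Levels between genes were compared per length, as FPKM, the count divided by gene length and library total. PADI2 had 23.0 FPKM in Parental 1, 0.988 in Resistant 1 and 0.619 in Resistant 2. PADI1 had 11.1, 3.42 and 2.22 FPKM in the same order, PADI3 had 0.996, 0.139 and 0.144, and PADI4 had 0.183, 0 and 0.0758. The order in Parental 1 was PADI2, PADI1, PADI3, PADI4, whereas in both resistant clones PADI1 came before PADI2. PADI2 made up 65.2% of the summed FPKM of the 4 genes in Parental 1 and 21.8% and 20.3% in Resistant 1 and Resistant 2. PADI1 made up 31.4% in Parental 1 and 75.2% and 72.6% in the resistant clones, although its own level was lower there. The sum itself was 35.3 FPKM in Parental 1, 4.54 in Resistant 1 and 3.06 in Resistant 2. In bulk RNA, fewer expressing cells and less RNA per cell cannot be told apart.

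The resistant clones were then set against each other, a contrast that did not choose the genes. PADI2 was 1.54-fold higher in Resistant 1 than in Resistant 2 (1.04 to 2.28) and PADI1 was 1.48-fold higher (1.20 to 1.84). PADI3 had a ratio of 0.929 with an interval from 0.287 to 2.93, which leaves its direction unknown. With 1 library against 1 there is no replicate check, and 12.1% of tested genes were at least 2-fold apart between these clones.

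The authors' group means of normalized counts showed the same directions at smaller sizes. These columns average the libraries of each group in the table, some of which have no label here, and come without a spread. PADI2 had a mean of 1257 in the parental group and 97.5 in the resistant group, a 12.9-fold difference. PADI3 differed by 5.15-fold, from 40.3 to 7.83. PADI1 differed by only 1.82-fold, from 411 to 225, so it stayed under the 2-fold line that 3.28% of tested genes crossed downwards and 4.19% upwards in these means. PADI4 had means of 3.71 and 2.01.

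On the scale of those means, a comparison chosen after seeing the data, Parental 1 lay above its group mean for PADI1 (1.54 times), PADI2 (1.18 times) and PADI3 (1.17 times). Both resistant clones lay below theirs. Resistant 1 and Resistant 2 were at 0.623 and 0.407 times the resistant mean for PADI2, and at 0.824 and 0.558 times for PADI1. The 3 labelled libraries therefore gave a wider gap for PADI1 and PADI2 than the groups as averaged by the authors. For PADI1 the log2 ratio went from -2.06 to -0.86, and for PADI2 from -4.91 to -3.68.

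**Figure D3:**
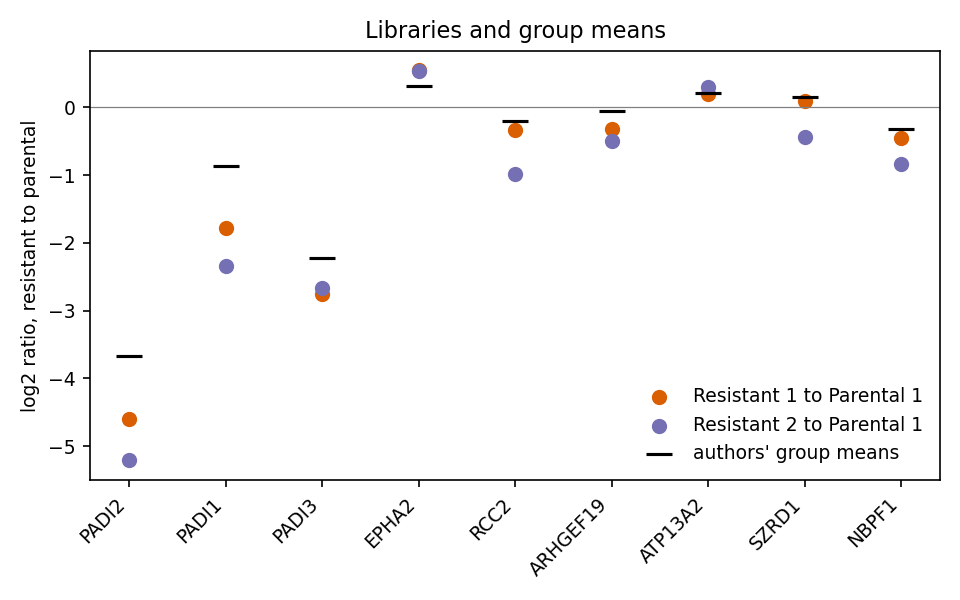
Log2 ratio of resistant to parental for PADI2, PADI1 and PADI3 and for the 6 most abundant genes within 1 Mb, in Resistant 1 and Resistant 2 against Parental 1 (points) and in the authors' group means with a pseudocount of 1 (bars). For PADI2 (-3.68), PADI1 (-0.86) and PADI3 (-2.23) the bar lay nearer to 0 than both points.

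Outside the family, the chromosome 1 neighbourhood held no other gene that was called. Of 42 other genes within 1 Mb of the cluster, 27 passed the filter. None was called lower or higher by edgeR's quasi-likelihood test with Benjamini-Hochberg adjustment at 0.05, against a background of 0.582% lower and 0.294% higher over all tested genes, and DESeq2 also called 0. At an unadjusted p under 0.05, 1 of the 27 was lower, beside 759 lower and 758 higher of all 15643 genes tested. DESeq2 called 125 lower and 121 higher of 14733 genes with an adjusted p. These backgrounds apply to each list below. None of the 27 was at least 2-fold lower or higher in both resistant clones. The median log2 ratio of the 27 was -0.15, with 18 below 0 and 9 above, beside 0.00 for all genes, and was 0.05 in the authors' means, so its sign was not stable.

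The lincRNA RP11-380J14.1, which lies in the gap between PADI2 and PADI1, had 35, 26 and 23 reads in Parental 1, Resistant 1 and Resistant 2, a log2 ratio of -0.75. AC004824.2, which overlaps PADI4 on the other strand, had 1, 0 and 0 reads. Whether the libraries kept strand is not stated, so reads of such overlapping genes may not be told apart. On the PADI6 side the first abundant gene was RCC2, a regulator of chromosome condensation and mitosis, with 10721, 9902 and 6706 reads and a log2 ratio of -0.65 that was not called. On the PADI2 side SDHB, a subunit of succinate dehydrogenase, had 664, 852 and 551 reads, which lay on both sides of the parental value. MFAP2, a microfibril protein, was the gene lower at an unadjusted p, with a log2 ratio of -0.85. SDHB and MFAP2 were picked after their values were seen. EPHA2, ATP13A2, ARHGEF19, SZRD1 and NBPF1, the other abundant genes of the window, were not called either.

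**Figure D4:**
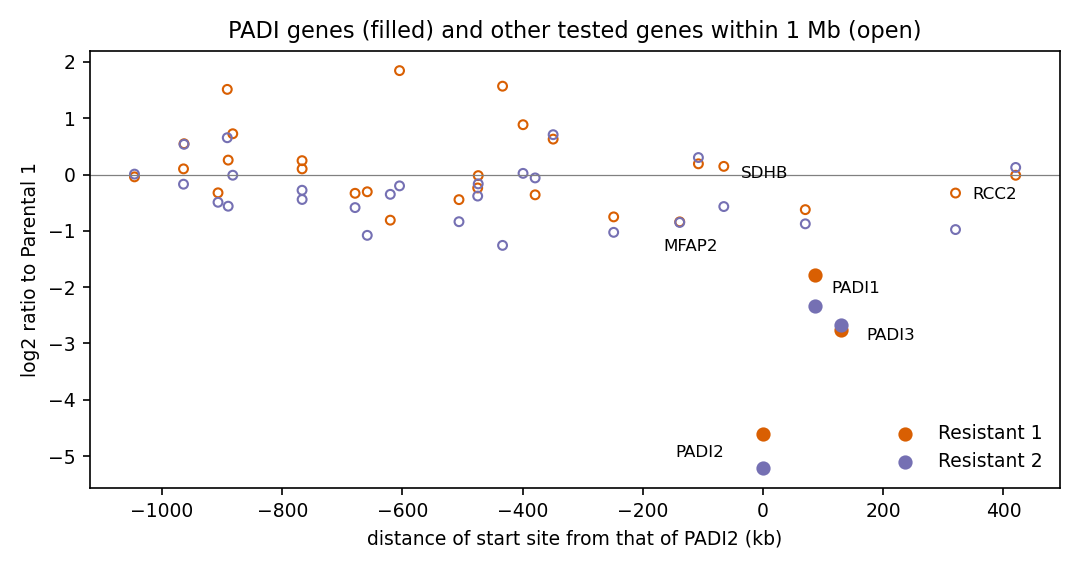
Log2 ratio to Parental 1 of the PADI genes (filled) and of 27 other tested genes within 1 Mb (open), in Resistant 1 and Resistant 2, by distance of the start site from that of PADI2 in kilobases. PADI2, PADI1 and PADI3 lay below the other genes of the window in both clones.

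Other enzymes that act on arginine had ratios on both sides of 0. Of 18 tested genes for arginine methylation and metabolism, 0 were called lower (0.582% of all tested genes) and 1 was called higher (0.294%). At an unadjusted p under 0.05, 1 was lower and 3 were higher, DESeq2 called 0 lower and 1 higher, and 4 were at least 2-fold higher in both clones (5.2%). The called gene was CPS1, the mitochondrial enzyme that starts the urea cycle, with 1, 178 and 229 reads. The others at least 2-fold higher in both clones were NOS1, NOS3 and GATM, and NOS1 and NOS3 were also higher at an unadjusted p. Like CPS1, each passed the filter on low counts only through a resistant library. These genes had to be lower in Parental 1, so nothing is read from the counts of higher genes. The median log2 ratio was 0.01. PRMT1, the main arginine methyltransferase, had 348, 266 and 395 CPM in Parental 1, Resistant 1 and Resistant 2. DDAH1 and DDAH2, relatives of the deiminases that break down methylarginines, had 40.4, 68.4 and 52.8 CPM and 74.0, 34.2 and 35.9 CPM in that order, and neither was called.

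Of 21 tested genes for proteins known to be citrullinated, 1 was called lower (0.582% of all tested genes) and 0 higher (0.294%). At an unadjusted p under 0.05, 1 was lower and 2 were higher, and DESeq2 called 1 lower and 0 higher. The lower gene was CXCL12, a chemokine, with 164 reads in Parental 1 and 0 in both resistant clones. It was at least 63.4-fold lower at a floor of 3 counts per library. CXCL12 passed the filter on low counts only through Parental 1, so it had to be lower elsewhere. PKM, ENO1, RPS2 and NPM1, the most abundant of the list, were not called, and nor were the substrates tied to particular deiminases. VIM, the intermediate filament vimentin, had 26.0, 40.7 and 78.4 CPM, FLG, the filaggrin gene, had 7.95, 11.2 and 11.3, and TCHH, the trichohyalin gene, had 9.79, 13.6 and 15.0. The list's median log2 ratio was 0.00.

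Cornification genes, which share the epidermal setting of PADI1 and PADI3, had 17 tested members. Of these 0 were called lower (0.582% of all tested genes), also at an unadjusted p and by DESeq2, and 1 was called higher (0.294%). At an unadjusted p under 0.05, 5 were higher, DESeq2 called 2 higher, SPRR2D and SPRR2A, and 5 were at least 2-fold higher in both clones (5.2% of all tested genes). SPRR2D, a cornified envelope precursor, had 8, 133 and 241 reads in Parental 1, Resistant 1 and Resistant 2, but its authors' means were close, at 92.4 and 108. SPRR2A had 5, 63 and 110 reads in that order, but its authors' means went the other way, at 67.3 parental and 51.7 resistant. The genes at least 2-fold higher in both clones were SPRR1A, SPRR2A, SPRR2D, TGM5 and CSTA. All but CSTA passed the filter on low counts only through a resistant library, so they had to be lower in Parental 1. SPRR1A, SPRR2A and SPRR2D were also among those higher at an unadjusted p, beside CSTA and SPRR1B. Nothing is therefore read from these counts of higher genes. PPL and EVPL, the abundant envelope proteins periplakin and envoplakin, were not called. The list's median was 0.50, or 0.33 with genes at 0 set to their bound, and 0.13 in the authors' means.

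Of 21 tested transcription factors and receptors proposed to regulate PADI genes, edgeR called 0 in either direction, as did DESeq2, and 1 was lower at an unadjusted p under 0.05. That gene, TFAP2C, had 405, 248 and 209 reads. SP1, which binds GC boxes, had 137, 96.8 and 73.4 CPM, and SP3 of the same list had 90.0, 92.1 and 89.4 CPM. Neither was called, and their part in the PADI values was not tested. ESR1, the oestrogen receptor proposed to act on PADI2 and PADI4, had 50, 56 and 70 reads. FOSL1, ERBB2, FOSL2 and RELA, the most abundant of the list, were not called. The list's median was -0.03.

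**Figure D5:**
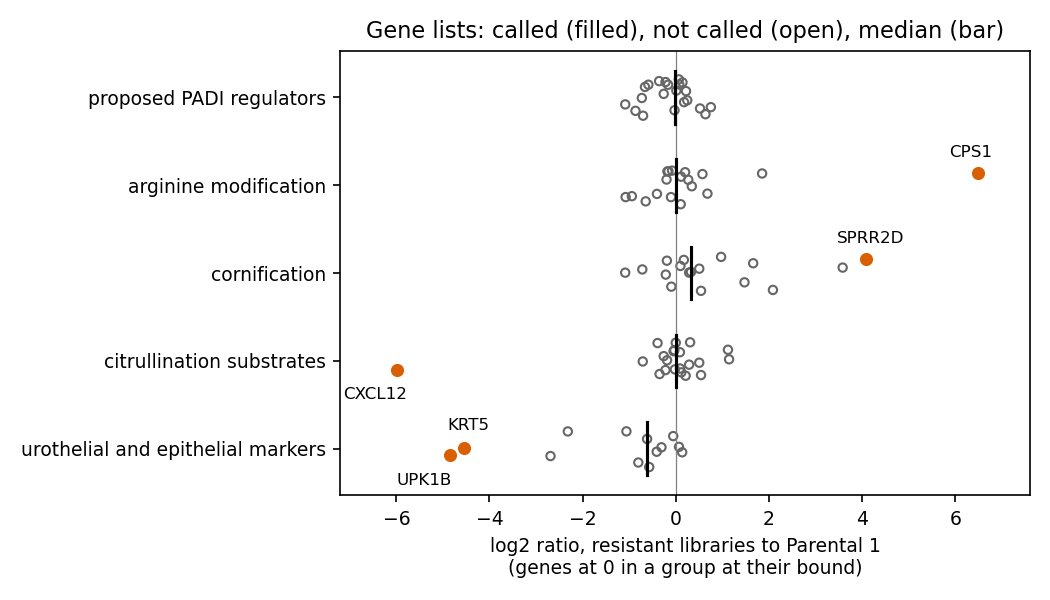
Log2 ratio of the resistant libraries to Parental 1 for tested genes of 5 lists, with called genes filled and named, others open, and the median as a bar. Genes at 0 in a group are drawn at their bound; CPS1 and SPRR2D were called higher, and CXCL12, KRT5 and UPK1B lower.

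Of the 13 tested urothelial and epithelial markers, 2 were called lower (0.582% of all tested genes) and 0 higher (0.294%). At an unadjusted p under 0.05, 5 were lower and 0 higher, beside 759 and 758 of all 15643 genes tested. DESeq2 called 4 lower and 0 higher, beside 125 and 121 of 14733. EPCAM and CDH1, the adhesion molecules of most epithelia, were the 2 with log2 ratios above 0, at 0.14 and 0.07. The other 11 were below 0, with -1.06 for KRT7 and -0.81 for KRT8. KRT13 (-2.32) and KRT17 (-2.69) were called lower by DESeq2 but not by edgeR. KRT5, the basal keratin, had 3829, 160 and 240 reads in Parental 1, Resistant 1 and Resistant 2. UPK1B, a uroplakin of differentiated urothelium, had 74, 0 and 0, at least 28.6-fold lower. UPK1B passed the filter on low counts only through Parental 1, so it had to be lower elsewhere. In the authors' means the log2 ratios were smaller, at -2.49 for KRT5 (11544 in the parental and 2047 in the resistant group) and -1.73 for UPK1B (70.1 and 20.4). The list's median log2 ratio was -0.62, and -0.43 in the authors' means. Its summed level was 10400 CPM in Parental 1 and 7620 and 7820 CPM in the resistant clones. The part of these marker differences in the PADI values was not tested.

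Leukocyte markers were checked because PADI4 is a granulocyte gene. Their summed level was 25.3, 38.1 and 74.5 CPM in Parental 1, Resistant 1 and Resistant 2, most of it ITGB2, and 6 of the 15 were at 3 or fewer reads in every library. PTPRC, the pan-leukocyte marker, had 4, 3 and 2 reads. Of the 4 tested, 0 were called by edgeR (0.582% of all tested genes lower, 0.294% higher). DESeq2 called 0, beside 125 lower and 121 higher of 14733. At an unadjusted p under 0.05, 1 was lower and 1 higher, beside 759 and 758 of 15643. Without ITGB2, an integrin subunit left out after its values were seen, the other 14 summed to 7.17 CPM in Parental 1. They summed to 2.87 CPM in Resistant 1 and 3.40 in Resistant 2. S100A9 gave 3.33, 0.306 and 0.346 CPM of these sums. Log2 ratios were below 0 for 2 of the 4 tested markers and above 0 for 2. S100A9 passed the filter on low counts only through Parental 1 and CD14 only through the resistant clones, so the filter fixed their directions. CD14 had 3, 12 and 18 reads, at the floor of 3 counts in Parental 1, and its authors' means were close, at 11.1 parental and 10.5 resistant. MPO, the granulocyte peroxidase, had 35, 13 and 22 reads, and S100A9, a calcium-binding protein of granulocytes and squamous epithelium, had 47, 5 and 6. CEACAM8 and S100A12 were at 0 in every library. The part of these markers in the PADI4 reads was not tested.

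The 5 genes whose pattern was nearest to PADI2 over the 3 libraries were PELI2, an E3 ligase of innate signalling, LGALS9, which encodes galectin-9, PALM, which encodes paralemmin, CPAMD8, of the alpha-2-macroglobulin family, and the long noncoding RNA CCAT1. They were ranked by the Euclidean distance between log2 CPM values centred on their mean, among 10312 genes with at least 100 reads in Parental 1. The distances were 0.27 for PELI2, 0.33 for LGALS9, 0.43 for PALM, 0.58 for CPAMD8 and 0.62 for CCAT1. PELI2 had 230, 8 and 7 reads. PADI1, the only other member with that many reads, was at 2.33, with 69 genes nearer. None of the 5 lies on chromosome 1, and 3 libraries give such a ranking little precision. All 5 passed the filter on low counts only through Parental 1, so they had to be lower elsewhere. The ranking also uses the contrast that chose PADI2, so it is a description only.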

How the data were processed

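RNA-seq of 3 labelled libraries of the 5637 line was used. The deposited table holds raw counts per gene and FPKM values that the authors computed. Checked against the file, each FPKM equals the count divided by listed length and summed counts. It also holds the authors' group means of normalized counts (a signal scaled for depth) and their log2 fold changes and p-values between groups, which were not used. The labels of the submitters' processing notes name hg19 and CASAVA 1.8. The aligner, counter and annotation release are not given in the sources used here. Another 6 per-library columns (3 of counts, 3 of FPKM) match no labelled sample and were not used.

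Genes were filtered with filterByExpr (15643 of 29960 kept), scaled by TMM and tested with edgeR 4.0.16 (quasi-likelihood, Benjamini-Hochberg adjusted p under 0.05 across all genes tested) in R 4.3.3. With 1 residual degree of freedom, Parental 1 was assumed to vary like the resistant clones. CPM use TMM-scaled totals. Log2 ratios are the mean log2 CPM of resistant libraries minus that of Parental 1 with a prior count of 1, and those of the authors' means use a pseudocount of 1, so both understate changes of low genes. Ratios carry 95% Clopper-Pearson intervals from SciPy 1.17.1, which cover counting error only. DESeq2 1.42.0, other scalings, filters, prior counts and windows were alternatives. On simulated counts (15300 genes), 63 of 100 genes changed 4-fold and 100 of 100 changed 16-fold were recovered, with 9 false calls. The simulation gave every gene the common dispersion (0.0791) and changed only the more abundant genes. These figures may therefore be better than the real counts would give.

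The members and lists were chosen with earlier results of these data known. Named genes were the members, every gene overlapping the cluster, the called or else 6 most abundant genes within 1 Mb, called and most abundant genes of each list, and the 5 nearest PADI2. Among the genes the rule gives, some are counted and not named. Others named (SDHB, MFAP2, DDAH1, DDAH2, VIM, FLG, TCHH, TFAP2C, SP1, SP3, ESR1, PTPRC, CD14, EPCAM, KRT13, KRT17, SPRR2A, CEACAM8, S100A12) were picked after their values were seen. So were NOS1, NOS3, GATM, SPRR1A, SPRR1B, TGM5 and CSTA. Most listed genes matched by symbol. FCGR3B, OTC, KRT1, FGG, RPTN, CRNN, TCHHL1, CDSN and KRT2 did not match. Promoters came from RefSeq (GRCh38.p14).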

Additional observations from a re-analysis of the deposited data

How the results depend on the processing

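The members kept their direction under every alternative run. In the authors' group means the log2 ratios were -3.68 for PADI2, -0.86 for PADI1, -2.23 for PADI3 and -0.64 for PADI4. PADI3 was -2.83 with a prior count of 0.25, -2.24 with 5 and -2.82 from FPKM, and its means gave -2.35 with a pseudocount of 0.1 and -1.50 with 10. Leaving out a resistant library gave -5.21 to -4.60 for PADI2, -2.34 to -1.78 for PADI1, -2.76 to -2.67 for PADI3, -2.96 to -1.05 for PADI4, and -0.35 to -0.01 for the median of the neighbours within 1 Mb. PADI4 rests on 9 reads in all and moved with the prior count, from -3.02 to -0.92.

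Genes called lower numbered 91, against 139 with DESeq2 size factors in edgeR, 261 without a filter and 48 with at least 10 reads in every library. Genes called higher numbered 46, against 96, 273 and 33, and 121 with DESeq2's own test. Genes at least 2-fold lower in both clones numbered 571, against 2274 without a filter, 320 with at least 10 reads, 250 at 3-fold, and 1210 to 1282 with 1 resistant library left out. Genes at least 2-fold higher numbered 813, against 2253, 395, 387, and 1250 to 1722 in the same order. These counts set only the background shares. The cause of these shifts was not tested beyond the fewer genes or libraries that the settings use.

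No paired analysis was possible because the groups share replicate number 1 only. Without either resistant library the calls have no residual degrees of freedom and were not made, and PADI4 has no value from FPKM because it was listed at 0 in Resistant 1.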

Other observations

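Set against the authors' group means, a comparison chosen after seeing the data, Parental 1 was far below the parental mean for 3 epithelial genes that were picked after their values were seen. It stood at 0.341 times the mean for KRT5, 0.0891 times for SPRR2D and 0.0641 times for S100A9. Of all tested genes, 0.422%, 0.0761% and 0.0415% were at least as far from the parental mean as KRT5, SPRR2D and S100A9. For PADI1 the library was 1.54 times the mean, and 3.81% of tested genes were at least as far from it. Resistant 1 and Resistant 2 stood at 0.0698 and 0.0989 times the resistant mean for KRT5.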
